A study of Homo sapiens with 12 samples.

Results

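Class I antigen presentation genes were followed in MCF10A cells, an immortalised, non-tumorigenic human mammary epithelial line, that stably expressed an intracellular domain (ICD) from ERBB4, a receptor tyrosine kinase of the EGF receptor family. The genes were 9 named components of the pathway: the heavy chains HLA-B, HLA-C, HLA-E and HLA-F, their light chain B2M, the peptide transporter subunits TAP1 and TAP2, the loading chaperone TAPBP and the peptide-trimming enzyme ERAP1. A probe counted as a member when the array annotation gave it 1 of these symbols and no other, which gave 16 probes for 9 genes, out of 20046 genes with a symbol on the bead array. All 9 genes had at least 1 probe that passed the detection filter, as did 10371 of the 20046 genes in all.

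The samples formed 3 groups, all grown in regular medium with serum. CYT1 cells expressed the ICD of the CYT-1 form of the JM-a ERBB4 isoform, CYT2 cells expressed the ICD of its CYT-2 form, and VEC cells carried the control vector; the forms are splice variants of the cytoplasmic tail. Each group had 2 labelled biological replicates with 2 technical arrays each, 12 arrays in all, and each construct was studied in the 1 line. The labels do not say whether the replicates came from separate cultures, or whether a group was a pool or 1 clone, so the p-values measure the spread between these samples.

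MHC class I molecules show fragments of the cell's own proteins to CD8 T cells. The proteasome cuts proteins into peptides, the TAP1 and TAP2 heterodimer carries them into the endoplasmic reticulum, ERAP1 trims them, and tapasin, the product of TAPBP, holds an empty class I molecule at the transporter until a peptide binds. The classical heavy chains leave for the cell surface with B2M, and HLA-E and HLA-F are non-classical chains read mainly by natural killer cell receptors. Epithelial cells express the pathway at a basal level and raise it strongly in response to interferon gamma.

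The promoters are shown for which of 4 control motifs each window holds. The TAP2 and TAP1 windows are given in full because, below, a TAP2 probe passed the test against VEC and TAP1 did not. The other windows are trimmed to the stretch that holds the matches. Windows from 250 bases before to 50 bases after each annotated start came from RefSeq (GRCh38.p14), and 8 of the 9 members matched, with 10 windows. HLA-E is named only. Capitals mark every match on either strand to GAAANNGAAA (the core of the interferon-stimulated response element), GGGANNNNCC (a kappa B site), TGACG (part of a cyclic AMP response element) or CCAAT (a box bound by nuclear factor Y). The stretches lie on the minus strand at chr6:32838690-32838989 (TAP2), chr6:32853655-32853954 (TAP1, first start), chr6:33314075-33314183 (TAPBP), chr6:31357223-31357364 (HLA-B), chr6:31272136-31272292 (HLA-C) and chr5:96807926-96808107 (ERAP1, second start). They lie on the plus strand at chr6:29723270-29723389 (HLA-F) and chr15:44711365-44711480 (B2M).
TAP2: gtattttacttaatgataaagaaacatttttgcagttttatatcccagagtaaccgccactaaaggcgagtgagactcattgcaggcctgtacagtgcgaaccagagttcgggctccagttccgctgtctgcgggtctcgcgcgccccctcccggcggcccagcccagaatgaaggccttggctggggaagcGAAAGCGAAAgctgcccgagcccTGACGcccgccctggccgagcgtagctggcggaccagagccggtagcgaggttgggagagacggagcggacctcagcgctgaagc
TAP1: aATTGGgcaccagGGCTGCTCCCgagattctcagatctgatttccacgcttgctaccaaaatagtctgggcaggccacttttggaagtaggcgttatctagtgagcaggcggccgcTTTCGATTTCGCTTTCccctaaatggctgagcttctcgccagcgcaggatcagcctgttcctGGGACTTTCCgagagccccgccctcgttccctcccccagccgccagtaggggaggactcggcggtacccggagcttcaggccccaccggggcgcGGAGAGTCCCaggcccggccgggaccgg
TAPBP: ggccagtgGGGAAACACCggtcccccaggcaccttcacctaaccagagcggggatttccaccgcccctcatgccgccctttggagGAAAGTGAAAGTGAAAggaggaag
HLA-B: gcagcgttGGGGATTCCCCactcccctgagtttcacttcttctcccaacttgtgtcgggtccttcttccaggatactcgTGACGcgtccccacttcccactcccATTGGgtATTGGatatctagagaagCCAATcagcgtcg
HLA-C: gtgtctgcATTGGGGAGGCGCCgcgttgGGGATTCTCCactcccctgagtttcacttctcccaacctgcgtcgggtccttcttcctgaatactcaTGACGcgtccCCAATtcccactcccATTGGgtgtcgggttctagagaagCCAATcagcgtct
HLA-F: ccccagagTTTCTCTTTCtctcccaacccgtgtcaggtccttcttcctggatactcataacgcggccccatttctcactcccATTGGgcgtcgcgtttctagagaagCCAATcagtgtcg
B2M: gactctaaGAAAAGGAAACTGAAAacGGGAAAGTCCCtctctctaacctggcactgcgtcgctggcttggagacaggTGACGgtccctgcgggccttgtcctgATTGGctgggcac
ERAP1: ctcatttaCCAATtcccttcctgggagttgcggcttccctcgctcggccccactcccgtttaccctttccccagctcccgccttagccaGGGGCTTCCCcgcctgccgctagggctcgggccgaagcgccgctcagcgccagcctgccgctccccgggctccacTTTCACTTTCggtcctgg

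The interferon-element core was found in the windows of TAP2, TAP1, TAPBP, HLA-F, B2M and ERAP1, whereas 3.57% of 35116 promoter windows of this length held it. In TAP2 the only match began at position -58 from the start, and TGACG began at position -35. TAP1, TAPBP and B2M each held 2 overlapping copies of the core, at -134 and -128, at -20 and -14, and at -144 and -138. HLA-B and HLA-C held no exact match to this core. Near matches were not counted, so an interferon element with other letters would be missed in any window. Both held GGGANNNNCC, TGACG and CCAAT, and over all windows these letters stood in 25.6%, 24.6% and 34.6%. Matches overlapped on opposite strands at the kappa B letters of HLA-B and B2M, and a CCAAT match overlapped a kappa B match in HLA-C. The window at the second start of TAP1 and that at the first start of ERAP1 held none of the 4 motifs. A match describes letters only, and no binding was measured.

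**Figure D1:**
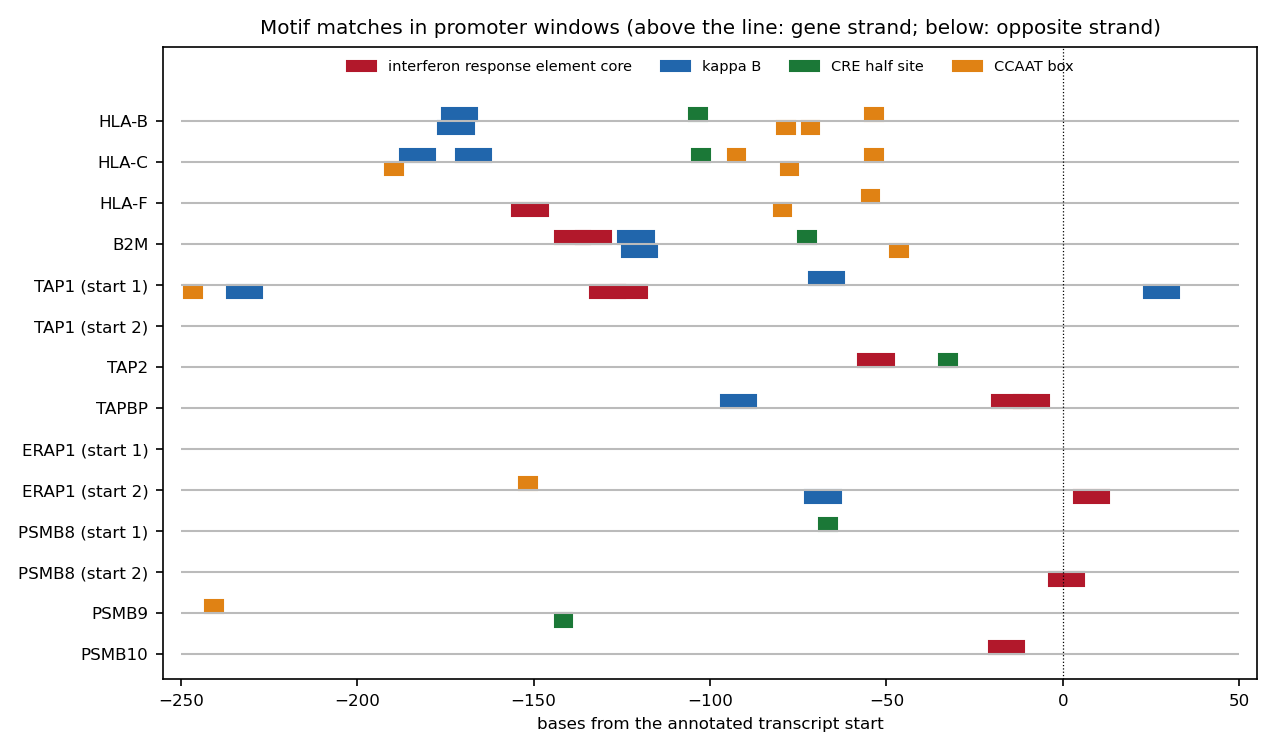
Map of motif matches in the promoter windows of the members and of the proteasome genes PSMB8, PSMB9 and PSMB10. The horizontal axis is the distance in bases from the annotated transcript start, boxes above each line are matches on the gene's strand and boxes below are on the opposite strand. The core of the interferon element (red) lies within 160 bases of the start in each window that holds it.

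Levels are bead signals after background correction and quantile normalisation, on a log2 scale, and a probe was tested when at least 2 of the 6 biological replicates had a detection p under 0.05 on both of their arrays. Of the 16 member probes, 13 were tested. The 3 others were an ERAP1 probe and an HLA-C probe detected on none of the 12 arrays and a TAPBP probe detected on 1 of 4 arrays in each group. Each array detected between 17514 and 18721 of 47323 probes, 37.0% to 39.6%, and the number of arrays limits the precision. The 1 ERBB4 probe was not detected on any array, with signals of 102 to 127.2, so it gave no check of the construct; whether it lies in the expressed part is not given in the sources used here. All 9 epithelial markers measured were among the tested genes, and 7 of 14 leukocyte markers, among them PTPRC and CD3E, were detected on none of the arrays, while CD14, CD68 and ITGB2 were detected on all 12.

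One property of the arrays bears on all results below. In every group, the arrays that shared a technical number lay on average closer together than the arrays that shared a biological number. Over all tested probes the root mean square log2 difference was 0.314 and 0.324 (CYT1), 0.301 and 0.314 (CYT2) and 0.294 and 0.312 (VEC) within a technical number. Within a biological number it was 0.334 and 0.347 (CYT1), 0.324 and 0.311 (CYT2) and 0.317 and 0.300 (VEC). The 2 technical arrays of a replicate were averaged, as labelled. Whether the labels' biological and technical numbers are exchanged was not settled, and if they were, the SDs and p-values over n = 2 would measure the spread between technical arrays. Averaging by the technical number instead gave 5200, 4269 and 23 called probes, against 6229, 5272 and 82 as labelled, for CYT1 minus VEC, CYT2 minus VEC and CYT1 minus CYT2; the member genes called below were called under both.

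In CYT1 cells 1 of 9 member genes was lower than in VEC cells (TAP2) and none was higher, at an adjusted p under 0.05 (limma, Benjamini-Hochberg over all 17356 tested probes). In CYT2 cells 2 of 9 were lower (TAP2 and HLA-F) and none was higher. Between CYT1 and CYT2 cells none of the 9 passed, and 2 of 13 probes (HLA-F and TAP2) had an unadjusted limma p under 0.05. A gene was represented by its brightest probe, and per probe the counts were 1, 2 and 0 of 13.

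Over all tested probes 35.9% were called in CYT1 minus VEC (19.2% lower and 16.7% higher), and 30.4% in CYT2 minus VEC (15.6% lower and 14.7% higher). In CYT1 minus CYT2 it was 0.472% (0.202% lower and 0.271% higher). The members' called shares by probe were 7.69% and 15.4% against VEC, both below the shares over all probes; 9 genes are too few to call that a property of the pathway. Of all calls, 46.5% in CYT1 minus VEC and 48.5% in CYT2 minus VEC were higher; the deposited log2 values without further normalisation gave 31.3% and 31.2%, and scaling to the median of all probes gave 33.6% and 37.1%. By brightest probe, the median absolute log2 difference of the 9 members was 0.06 in CYT1 minus VEC and 0.14 in CYT2 minus VEC. Over all tested probes, dimmer probes of a gene included, it was 0.26 and 0.24, so the probes compared were not chosen alike.

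**Figure D2:**
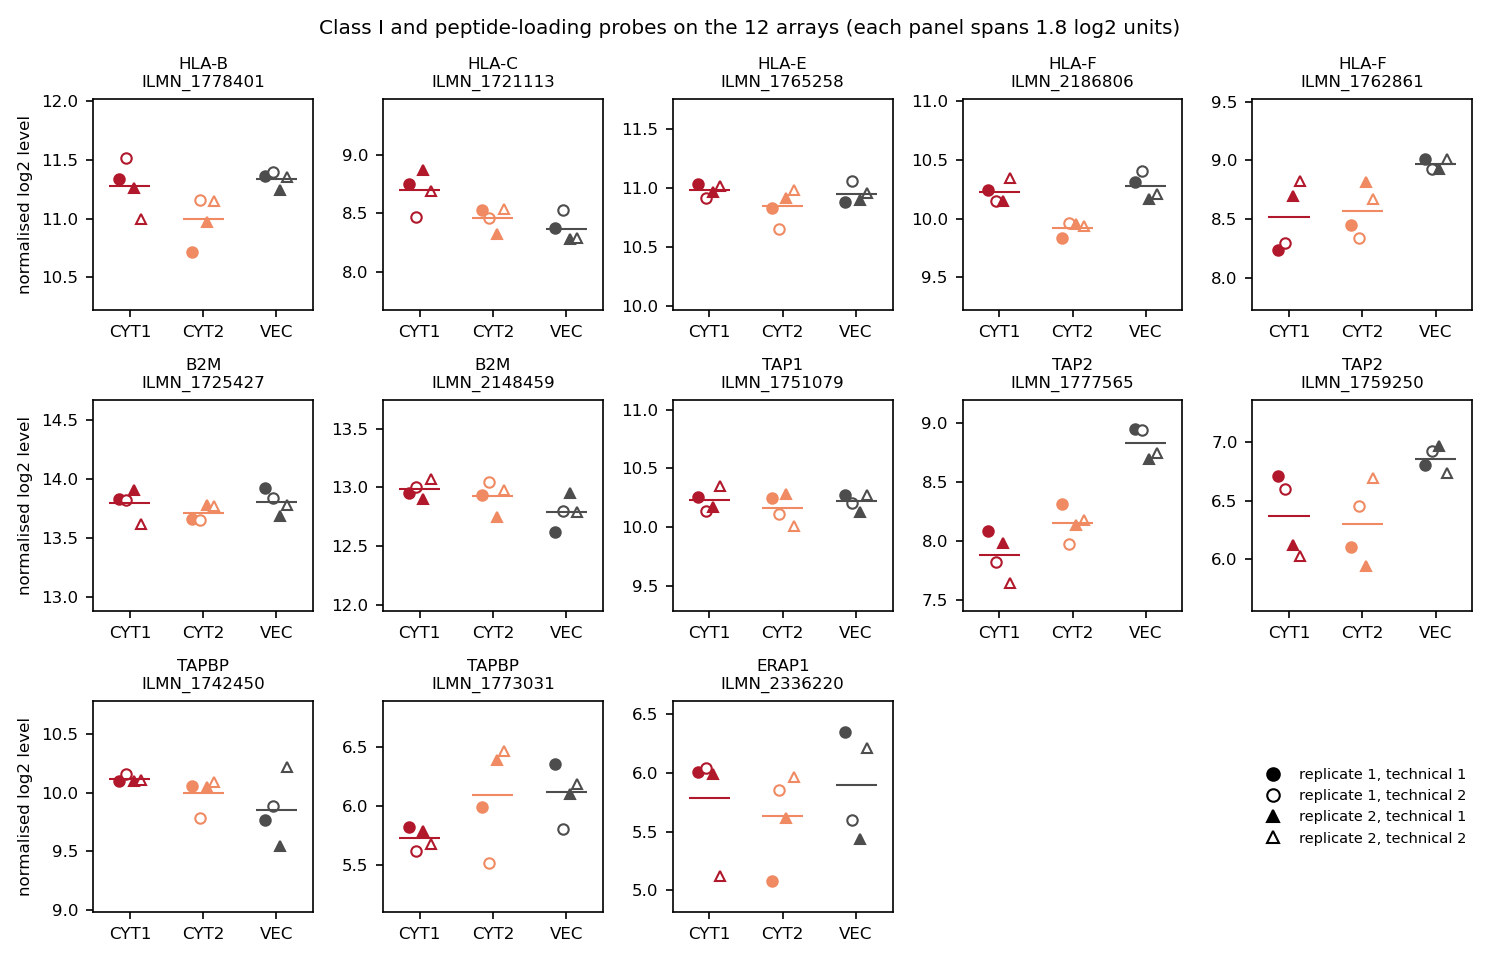
Normalised log2 level (vertical axis) of the 13 tested member probes on the 12 arrays, by group. Circles are biological replicate 1 and triangles replicate 2, filled for technical array 1 and open for technical array 2; lines are group means. Both TAP2 probes are lower on all CYT1 and CYT2 arrays than on any VEC array, while TAP1, HLA-E and B2M overlap.

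TAP2, the partner of TAP1 in the peptide transporter, had the largest change of the members. Its brighter probe (ILMN_1777565) read 8.09, 7.82, 7.98 and 7.65 on the CYT1 arrays, 8.31, 7.97, 8.13 and 8.18 on the CYT2 arrays, and 8.96, 8.94, 8.70 and 8.74 on the VEC arrays. Every CYT1 and CYT2 array was below every VEC array, and CYT1 and CYT2 overlapped. The level averaged 7.88 ± 0.10 in CYT1 cells and 8.83 ± 0.16 in VEC cells (SD, n = 2 each), a log2 fold change of -0.95 ± 0.11 (SE; 95% interval -1.21 to -0.69), 0.517 of the VEC level (limma, adjusted p = 0.00159). In CYT2 cells it averaged 8.15 ± 0.01 (SD, n = 2), a log2 fold change against VEC of -0.69 ± 0.11 (-0.95 to -0.42), 0.622 of the VEC level (limma, adjusted p = 0.00624). Both calls held in all 21 alternative settings run, with log2 fold changes of -1.11 to -0.71 in CYT1 minus VEC and -0.80 to -0.52 in CYT2 minus VEC.

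A dimmer TAP2 probe (ILMN_1759250) was also lower on every array of both ICD groups. It read 6.71, 6.60, 6.12 and 6.03 in CYT1 cells, 6.10, 6.46, 5.95 and 6.69 in CYT2 cells, and 6.81, 6.92, 6.97 and 6.73 in VEC cells. It did not pass the test, at -0.49 ± 0.18 (adjusted p = 0.0845) for CYT1 minus VEC and -0.56 ± 0.18 (adjusted p = 0.0666) for CYT2 minus VEC (limma). Over the 6 biological replicates the levels of the 2 probes correlated at r = 0.81, as a description. Between the ICD groups the brighter probe differed by -0.26 (CYT1 minus CYT2, 95% interval -0.53 to -0.001, adjusted p = 0.285 by limma) and the dimmer probe by 0.07 (-0.38 to 0.51), so a difference between CYT1 and CYT2 was not shown.

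No such difference was measured at TAP1, whose product pairs with that of TAP2. Its probe read 10.26, 10.14, 10.17 and 10.35 in CYT1 cells, 10.25, 10.11, 10.29 and 10.01 in CYT2 cells, and 10.27, 10.21, 10.13 and 10.27 in VEC cells. All 3 groups overlapped. The log2 fold change was 0.01 ± 0.08 in CYT1 minus VEC (95% interval -0.18 to 0.21) and -0.06 ± 0.08 in CYT2 minus VEC (-0.25 to 0.14), with adjusted p = 0.925 and 0.629 (limma). Neither interval reaches the value measured at the brighter TAP2 probe; the difference between the genes itself was not tested.

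TAPBP encodes tapasin, which bridges the transporter and the class I heavy chain. Its brighter probe (ILMN_1742450) read 10.10, 10.16, 10.10 and 10.11 in CYT1 cells, 10.06, 9.79, 10.04 and 10.09 in CYT2 cells, and 9.77, 9.89, 9.54 and 10.22 in VEC cells. The CYT1 arrays lay above all CYT2 arrays by a narrow margin and overlapped the VEC arrays, which spread widely. The log2 fold change was 0.26 ± 0.09 in CYT1 minus VEC (adjusted p = 0.0632) and 0.14 ± 0.09 in CYT2 minus VEC (adjusted p = 0.279), and neither passed (limma). A dimmer probe (ILMN_1773031) had the opposite sign, at -0.39 ± 0.21 in CYT1 minus VEC and -0.02 ± 0.21 in CYT2 minus VEC, and did not pass either (adjusted p = 0.199 and 0.947, limma).

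ERAP1, the aminopeptidase that shortens peptides to the length class I binds, was near the limit of detection. Its probe (ILMN_2336220) was detected on 3 of 4 arrays in each group and read 6.01, 6.04, 5.99 and 5.13 in CYT1 cells, 5.08, 5.86, 5.62 and 5.97 in CYT2 cells, and 6.35, 5.60, 5.44 and 6.21 in VEC cells. The groups overlapped, and the log2 fold changes of -0.11 ± 0.18 in CYT1 minus VEC and -0.27 ± 0.18 in CYT2 minus VEC did not pass (adjusted p = 0.686 and 0.32, limma). The 95% intervals, -0.56 to 0.34 and -0.72 to 0.18, leave room for differences the size of those at HLA-F.

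**Figure D3:**
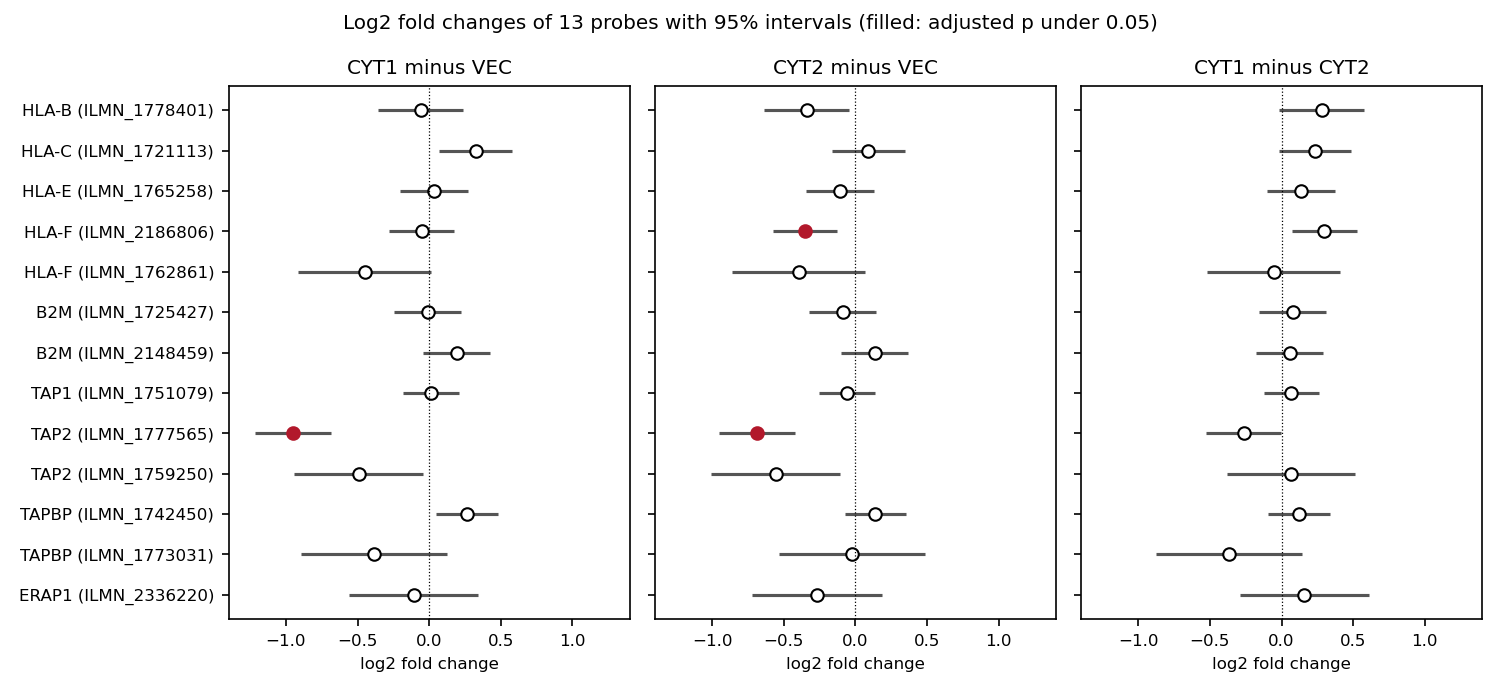
Log2 fold change (horizontal axis) of each tested member probe in the 3 comparisons, with 95% intervals from the limma fit; filled points passed an adjusted p of 0.05. TAP2 (ILMN_1777565) passed at -0.95 in CYT1 minus VEC and -0.69 in CYT2 minus VEC, HLA-F (ILMN_2186806) passed at -0.35 in CYT2 minus VEC, and no probe passed in CYT1 minus CYT2.

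Among the heavy chains HLA-F, a non-classical chain that can reach the surface without peptide, was the 1 gene called. Its brighter probe (ILMN_2186806) read 10.25, 10.15, 10.15 and 10.34 in CYT1 cells, 9.83, 9.97, 9.96 and 9.94 in CYT2 cells, and 10.31, 10.40, 10.17 and 10.21 in VEC cells. The CYT2 arrays were below all arrays of both other groups, and the CYT1 and VEC arrays overlapped. In CYT2 cells it averaged 9.92 ± 0.03, against 10.28 ± 0.12 in VEC cells (SD, n = 2 each), a log2 fold change of -0.35 ± 0.09 (95% interval -0.58 to -0.13), 0.784 of the VEC level (limma, adjusted p = 0.0338). The call was kept in 10 of 21 alternatives. It was lost when any single replicate of any group was left out (adjusted p = 0.052 to 0.151, limma), and in 5 other alternatives.

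In CYT1 minus VEC the brighter HLA-F probe differed by -0.05 ± 0.09 (adjusted p = 0.695), and in CYT1 minus CYT2 by 0.30 ± 0.09 (adjusted p = 0.188, limma), although those 2 groups' arrays did not overlap. A dimmer probe (ILMN_1762861) read 8.24, 8.30, 8.70 and 8.83 in CYT1 cells, 8.45, 8.34, 8.82 and 8.67 in CYT2 cells, and 9.01, 8.92, 8.93 and 9.01 in VEC cells. Here both ICD groups were below all VEC arrays, at -0.45 ± 0.19 in CYT1 minus VEC and -0.40 ± 0.19 in CYT2 minus VEC, without passing (adjusted p = 0.115 and 0.169, limma). Averaged by technical number, this probe passed in both comparisons (adjusted p = 0.0191 and 0.0365, limma). In both ICD groups its arrays differed mainly by biological number, and that averaging evens out this spread. The 2 HLA-F probes thus gave different values in CYT1 cells, and their levels correlated at r = 0.45 over the 6 replicates.

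HLA-B, a classical chain that presents peptides to T cells, read 11.34, 11.52, 11.26 and 11.00 in CYT1 cells, 10.72, 11.16, 10.97 and 11.15 in CYT2 cells, and 11.36, 11.40, 11.24 and 11.36 in VEC cells. The CYT2 arrays were all below the VEC arrays, and CYT1 overlapped both. The log2 fold change was -0.34 ± 0.12 in CYT2 minus VEC (95% interval -0.64 to -0.04, adjusted p = 0.0844) and -0.06 ± 0.12 in CYT1 minus VEC (adjusted p = 0.735, limma). The CYT2 difference passed in 8 of the 21 alternatives, all with the same sign.

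HLA-C, the other classical chain measured, had its highest array in CYT1 cells. It read 8.75, 8.47, 8.87 and 8.69 in CYT1 cells, 8.53, 8.46, 8.33 and 8.53 in CYT2 cells, and 8.38, 8.53, 8.28 and 8.29 in VEC cells. The groups overlapped through 1 CYT1 array, and the log2 fold change of 0.33 ± 0.10 in CYT1 minus VEC just missed the threshold (adjusted p = 0.0547, limma). It passed in 7 of the 21 alternatives. In CYT2 minus VEC it was 0.09 ± 0.10 (adjusted p = 0.545, limma).

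The arrays of HLA-E and B2M overlapped across the groups. HLA-E, which presents leader peptides of other class I chains to natural killer cells, read 11.04, 10.91, 10.97 and 11.02 in CYT1 cells, 10.83, 10.66, 10.91 and 10.98 in CYT2 cells, and 10.88, 11.06, 10.90 and 10.96 in VEC cells. Its log2 fold change was 0.03 ± 0.10 in CYT1 minus VEC and -0.11 ± 0.10 in CYT2 minus VEC, with 95% intervals of -0.21 to 0.27 and -0.34 to 0.13 (adjusted p = 0.821 and 0.452, limma). The brighter B2M probe (ILMN_1725427) read between 13.62 and 13.91 in CYT1 cells, 13.65 and 13.78 in CYT2 cells, and 13.68 and 13.93 in VEC cells. It differed by -0.01 ± 0.10 in CYT1 minus VEC and -0.09 ± 0.10 in CYT2 minus VEC (adjusted p = 0.946 and 0.52, limma).

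A second B2M probe (ILMN_2148459) differed by 0.19 ± 0.10 in CYT1 minus VEC and 0.14 ± 0.10 in CYT2 minus VEC and did not pass (adjusted p = 0.173 and 0.334, limma). The 2 probes gave opposite signs and correlated at r = -0.62 over the 6 replicates. Heavy chain genes are similar in sequence and vary between people, so a probe may bind the RNA of a related chain; this was not tested. In bulk RNA, a smaller share of expressing cells and less RNA per cell cannot be told apart.

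Full separation of the groups' arrays, a measure that uses no model, was found for a minority of member probes. The 4 arrays of each group did not overlap for 3 of 13 probes in CYT1 minus VEC (both TAP2 probes and the dimmer HLA-F probe, all lower), where 37.1% of all tested probes did not overlap. In CYT2 minus VEC it was 5 of 13 (both TAP2 and both HLA-F probes and HLA-B, all lower), beside 34.5% of all. In CYT1 minus CYT2 it was 2 of 13 (HLA-F and TAPBP, both higher in CYT1), beside 11.4%. The 2 comparisons with VEC share the VEC arrays.

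By group, the 5 class I chains had a median log2 fold change of -0.01 in CYT1 minus VEC, -0.11 in CYT2 minus VEC and 0.23 in CYT1 minus CYT2. The 4 genes of peptide supply and loading had medians of -0.05 in CYT1 minus VEC, -0.16 in CYT2 minus VEC and 0.10 in CYT1 minus CYT2. Over all tested probes the medians in the same 3 comparisons were -0.04, -0.05 and -0.0006. The CYT1 minus CYT2 value was above 0 for the representative probe of all 5 chains, from 0.08 (B2M) to 0.30 (HLA-F), but none of these differences passed, and the chains share the same arrays.

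Across the 6 biological replicates, the genes whose levels ran closest to TAP2 were HEATR1, a ribosome biogenesis factor (r = 0.999), and PPT1, a lysosomal thioesterase (r = 0.999). For HLA-F they were SLC41A3 (r = 0.994) and ATP6V1F, a subunit of the vacuolar proton pump (r = 0.991), and for HLA-B they were CTBS (r = 0.993) and RECQL, a DNA helicase (r = 0.988). TAP1 ran closest to RHOB (r = 0.986) and B2M to C1orf216 (r = 0.970). These are the highest of 10370 values each over only 6 points that share the same 3 groups, and such values are a description. No member was among the 2 closest genes of another member.

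Proteasomes supply the peptides that TAP carries, and changes below are log2 differences against VEC. Of 9 genes of the immunoproteasome and its activators and constitutive counterparts, 5 were lower and none higher in CYT1 cells, and 3 were lower and none higher in CYT2 cells, against VEC. Without PSMB9, which passed the detection filter only through VEC cells, the counts were 4 lower of 8 in CYT1 cells and 2 lower of 8 in CYT2 cells, beside 19.2% and 15.6% of all probes tested. PSMB8, PSMB9 and PSMB10 encode the interferon-inducible catalytic subunits. PSMB10 read 10.95 and 11.08 in CYT1 cells, 11.25 and 11.34 in CYT2 cells, and 11.67 and 11.64 in VEC cells (means of technical arrays). PSMB8 read 9.41 and 9.47 in CYT1 cells, 9.54 and 9.59 in CYT2 cells, and 9.86 and 9.95 in VEC cells. For both genes the 3 groups did not overlap at the level of replicates, with CYT1 lowest and VEC highest. Over the 4 single arrays of each group, the CYT1 and CYT2 values of PSMB8 overlapped.

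PSMB10 fell by 0.64 ± 0.09 in CYT1 cells (adjusted p = 0.00312) and by 0.36 ± 0.09 in CYT2 cells (adjusted p = 0.0267, limma). PSMB8 fell by 0.47 ± 0.08 in CYT1 cells (adjusted p = 0.00771) and by 0.34 ± 0.08 in CYT2 cells (adjusted p = 0.026, limma). Both other tested PSMB8 probes also fell in CYT1 cells, by 0.49 and 0.68, and missed the threshold in CYT2 cells. The CYT1 calls held in all 21 alternatives, and the CYT2 calls in 14 for PSMB10 and 13 for PSMB8. The difference between CYT1 and CYT2 did not pass for either gene. PSMB8 lies between TAP2 and TAP1 in the class II region of chromosome 6, and PSMB9 is the next gene after TAP1.

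In VEC cells 4 of 4 arrays detected PSMB9, as did 1 of 4 in CYT1 and 1 of 4 in CYT2 cells, so its lower values, at -0.50 in CYT1 and -0.52 in CYT2 cells, were in part set by the filter. PSME2, a subunit of the proteasome activator, fell by 0.32 in CYT1 cells (adjusted p = 0.0326, limma), and PSMB5, the constitutive counterpart of PSMB8, fell by 0.28 (adjusted p = 0.0376, limma). These calls were kept in 10 of 21 alternatives for PSME2 and 9 of 21 for PSMB5. In CYT2 cells PSME2 differed by -0.06 and PSMB5 by -0.05, and neither passed. The median over the 9 genes, PSMB9 included, was -0.28 in CYT1 minus VEC and -0.06 in CYT2 minus VEC.

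A further list of 8 tested genes held other chaperones and trimming enzymes and the class I chain HLA-G. Of them, 1 was higher and 4 lower in CYT1 cells, and 1 was higher and 2 lower in CYT2 cells. Of all probes tested, 35.9% were called in either direction in CYT1 and 30.4% in CYT2 cells. HLA-G differed by 0.12 in CYT1 and -0.13 in CYT2 cells and did not pass (adjusted p = 0.521 and 0.478, limma). ERAP2, a trimming aminopeptidase that works beside ERAP1, was the gene that rose, with replicates at 12.71 and 12.66 in CYT1 cells, 12.50 and 12.48 in CYT2 cells, and 11.70 and 11.77 in VEC cells. It rose by 0.95 ± 0.08 in CYT1 cells (adjusted p = 0.000576) and by 0.75 ± 0.08 in CYT2 cells (adjusted p = 0.00171, limma). A dimmer ERAP2 probe (ILMN_1743145) had the opposite sign, at -0.44 in CYT1 and -0.40 in CYT2 cells, and did not pass, so the direction for the gene rests on 1 probe.

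TAPBPL, a tapasin relative that edits the peptides, fell by 0.67 in CYT1 cells (adjusted p = 0.00827, limma) and differed by -0.29 in CYT2 cells (adjusted p = 0.122). UGGT1, which returns misfolded glycoproteins to the chaperones, fell by 0.58 in CYT1 cells (adjusted p = 0.0302, limma) and differed by -0.48 in CYT2 cells (adjusted p = 0.0626); it was detected on 2 of 4 arrays in each ICD group and on 4 of 4 in VEC cells. Calnexin (CANX), which folds new heavy chains, fell by 0.38 in CYT1 and 0.42 in CYT2 cells (adjusted p = 0.0214 and 0.0189, limma), and a second CANX probe, at -0.26 and -0.28, did not pass. HSPA5, the general chaperone of the endoplasmic reticulum, fell by 0.28 in CYT1 and 0.42 in CYT2 cells (adjusted p = 0.0443 and 0.0132, limma). In CYT1 minus VEC, TAPBPL kept its call in 20 of 21 alternatives, CANX in 15 and HSPA5 in 9.

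Of 17 tested transcription and interferon-signalling genes, 4 were higher and 2 lower in CYT1 cells, and 3 were higher and 1 lower in CYT2 cells. Of all probes tested, 35.9% were called in CYT1 and 30.4% in CYT2 cells, so these shares were close to the background. SOCS1, an inhibitor of interferon signalling, fell by 1.12 in CYT1 and 1.01 in CYT2 cells (adjusted p = 0.0102 and 0.0177, limma), and it was detected on 3 of 4 arrays in both ICD groups and on 4 of 4 in VEC cells. Over the alternatives its difference ranged between -1.41 and -0.46 in CYT1 cells and between -1.26 and -0.42 in CYT2 cells, smallest with signals not background-corrected. RFX5, a subunit of the complex that binds class I and class II promoters, rose by 0.66 in CYT1 and 0.73 in CYT2 cells (adjusted p = 0.00228 and 0.00211, limma), and a second RFX5 probe, at 0.43 and 0.26, did not pass. CREB1, which binds the cyclic AMP response element, rose by 0.93 in CYT1 and 0.89 in CYT2 cells (adjusted p = 0.000658 and 0.00104, limma), and a second tested CREB1 probe rose with it while another fell by 0.37 in CYT2 cells (adjusted p = 0.0172).

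IRF1, an activator of interferon-response promoters, rose by 0.30 in CYT1 and 0.44 in CYT2 cells (adjusted p = 0.041 and 0.014, limma). The CYT1 call was kept in 6 of 21 alternatives. IRF9, part of the type I interferon response complex, rose by 0.37 in CYT1 cells (adjusted p = 0.0228, limma) and differed by 0.20 in CYT2 cells. IFNGR2, a chain of the interferon gamma receptor, fell by 0.43 in CYT1 cells (adjusted p = 0.0148, limma) and differed by -0.29 in CYT2 cells (adjusted p = 0.0567). NLRC5, the class I transactivator, was not detected on any array.

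**Figure D4:**
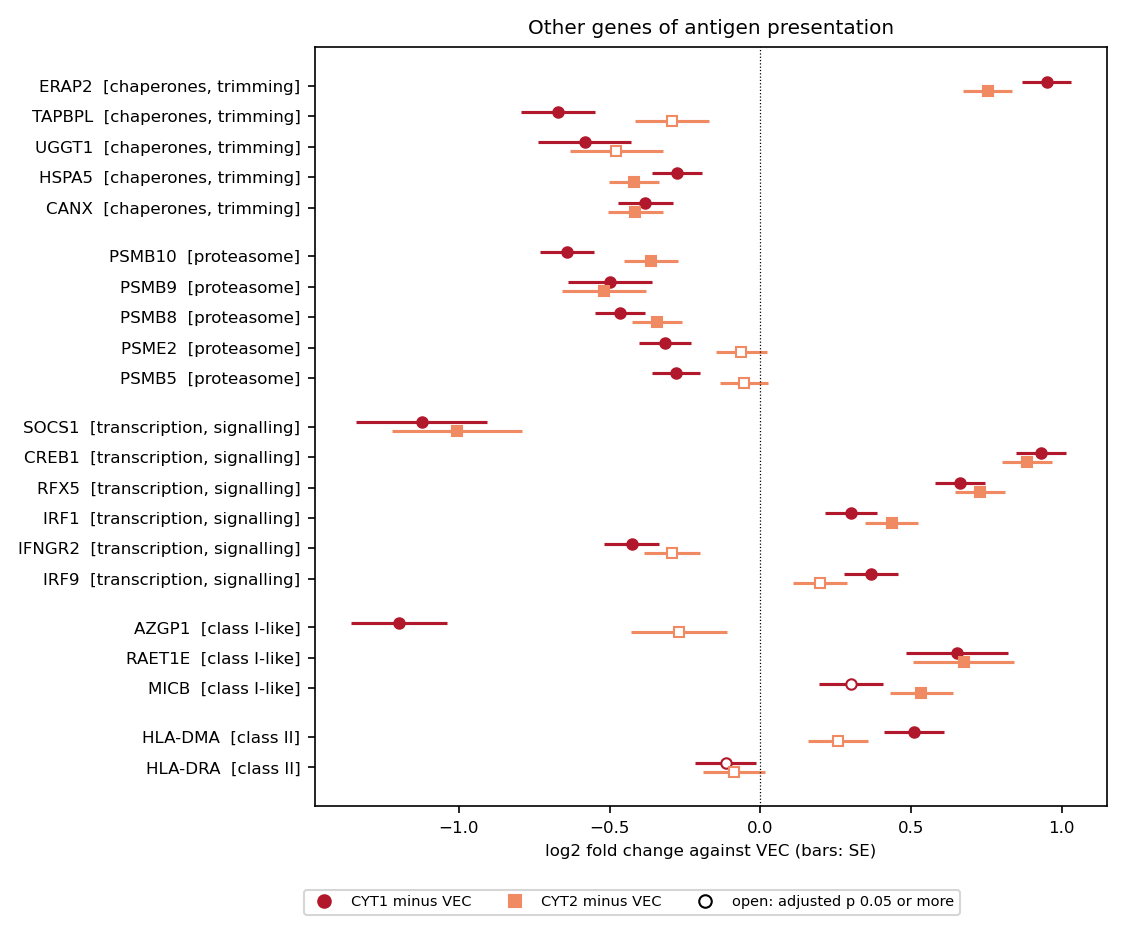
Log2 fold change against VEC (horizontal axis, with SE) of named genes from the other antigen presentation lists, for CYT1 (circles) and CYT2 (squares); filled symbols passed an adjusted p of 0.05. All genes shown except HLA-DRA were chosen because they were called in either comparison, so their side of 0 was in part set by that choice. The 5 proteasome genes shown lie below 0 in both comparisons, from -0.64 to -0.05, and PSMB9 passed the detection filter only through VEC cells. PSME1, PSMB6, PSMB7 and POMP of the same list, not shown, lie between -0.18 and 0.18. ERAP2, CREB1 and RFX5 lie between 0.66 and 0.95.

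Of 8 tested class I-like genes, 1 was higher and 1 lower in CYT1 cells, and 2 were higher and none lower in CYT2 cells, beside 35.9% and 30.4% of all probes called in either direction. AZGP1, a secreted class I-like protein, fell by 1.20 in CYT1 cells (adjusted p = 0.00273, limma) and differed by -0.27 in CYT2 cells (adjusted p = 0.249), and the CYT1 minus CYT2 difference did not pass. Its CYT1 difference was smallest among the alternatives, at -0.51, with signals not background-corrected. RAET1E, a stress ligand of the receptor NKG2D, rose by 0.65 in CYT1 and 0.67 in CYT2 cells (adjusted p = 0.0279 and 0.029, limma), calls kept in 13 of 20 alternatives in CYT1 and 12 of 20 in CYT2 cells. MICB, another such ligand, rose by 0.53 in CYT2 cells (adjusted p = 0.0129, limma) and differed by 0.30 in CYT1 cells (adjusted p = 0.0694).

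Class II genes were mostly not detected, as the brightest probe of 9 of the 12 on the array was detected on none of the arrays. HLA-DMA, a class II peptide exchanger, rose by 0.51 in CYT1 cells (adjusted p = 0.0107, limma) and differed by 0.26 in CYT2 cells, and HLA-DRA differed by -0.11 in CYT1 and -0.09 in CYT2 cells and did not pass. No gene of these 5 lists passed in CYT1 minus CYT2.

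Summed normalised levels of epithelial, fibroblast and leukocyte markers differed between the ICD groups and VEC cells, but single epithelial and leukocyte markers went both ways. Of all probes tested, 19.2% were called lower and 16.7% higher in CYT1 cells, and 15.6% lower and 14.7% higher in CYT2 cells. Sums were taken on the linear scale, so the brightest markers weigh most. Among the epithelial markers this was LAMB3, with a mean log2 level of 12.98 in CYT1, 13.16 in CYT2 and 13.69 in VEC cells. Summed, the 9 epithelial markers read 21592 to 23242 in CYT1, 22722 to 24985 in CYT2 and 29224 to 31708 in VEC cells. Of them, 6 were lower and 2 higher in CYT1 cells, and 5 were lower and 2 higher in CYT2 cells. The 2 higher were KRT5, by 1.08 in CYT1 and 0.95 in CYT2 cells, and KRT14, by 1.60 and 0.51. Summed, the 12 fibroblast markers read 29426 to 32438 in CYT1, 26826 to 28319 in CYT2 and 20235 to 21088 in VEC cells. Of 7 tested genes 5 were higher in each ICD group, and 4 of the 12 were detected on none of the arrays. One of the 7, POSTN, passed the filter only through CYT1 cells, and without it 4 of 6 were higher in each. These 4 include COL1A1, detected on 4 of 4 arrays in each ICD group and on 1 of 4 in VEC cells. It passed the filter through the ICD groups, so its higher values were in part set by the filter. The 14 leukocyte markers summed to 3198 to 3479 in CYT1, 3024 to 3202 in CYT2 and 3753 to 3859 in VEC cells. Of the 4 leukocyte markers tested, 1 was higher and 2 lower in CYT1 cells, and 1 was higher and 1 lower in CYT2 cells. ITGB2 rose by 0.90 in CYT1 and 0.70 in CYT2 cells. CD68 fell by 0.34 in CYT1 and 0.72 in CYT2 cells. CD14 fell by 0.75 in CYT1 cells and differed by -0.11 in CYT2 cells, which did not pass. The 7 endothelial markers, none of them tested and 5 detected on none of the arrays, summed to 193 to 232 in CYT1 cells, 209 to 222 in CYT2 cells and 186 to 213 in VEC cells. The part of these shifts in the TAP2 and proteasome results was not tested.

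**Figure D5:**
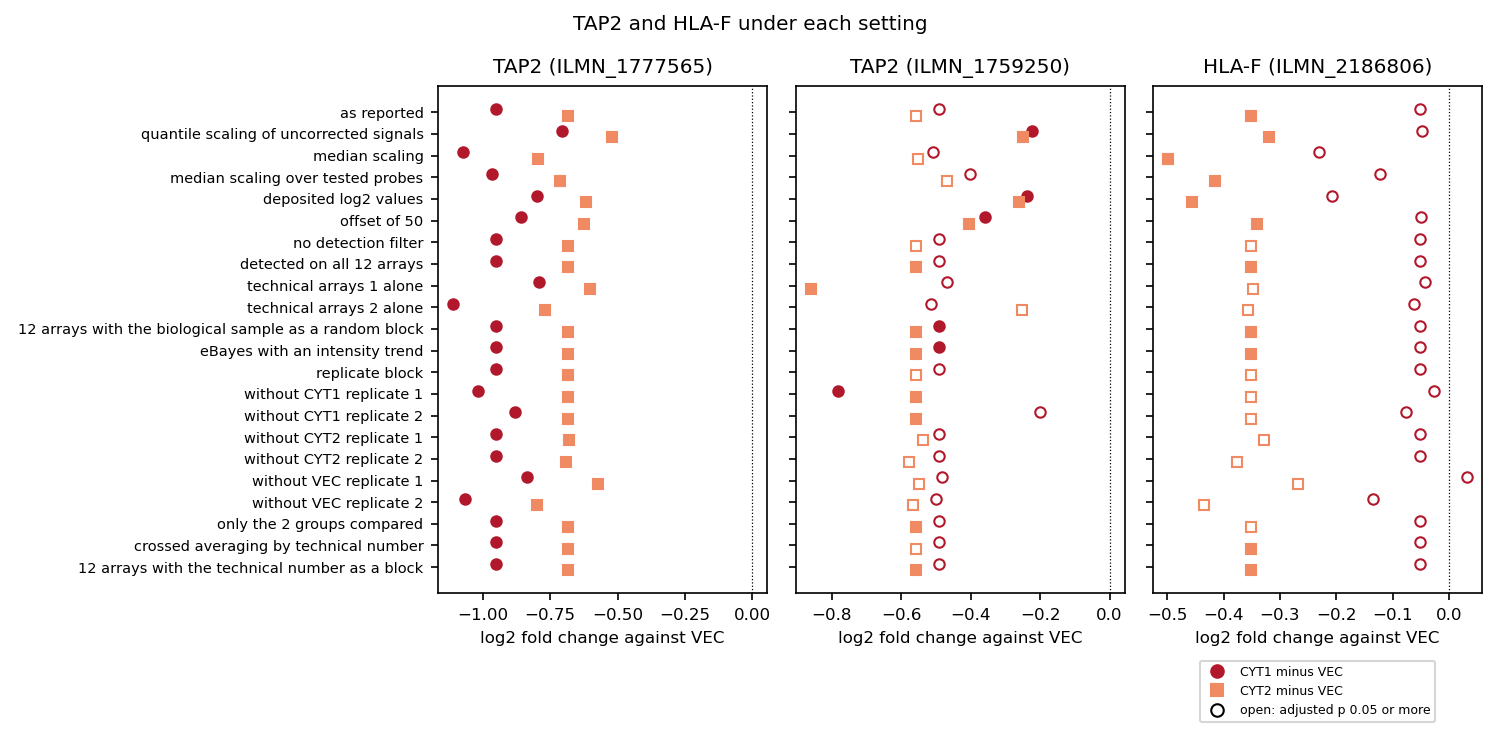
Log2 fold change against VEC (horizontal axis) of both TAP2 probes and the brighter HLA-F probe under each setting (rows), for CYT1 (circles) and CYT2 (squares); filled symbols passed an adjusted p of 0.05. The brighter TAP2 probe passed in every row, from -1.11 to -0.52, and HLA-F passed in CYT2 minus VEC as reported and in 10 of the 21 alternatives.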

How the data were processed

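MCF10A RNA was hybridised to Illumina bead arrays as biotin-labelled cRNA, per the labels' protocols. The authors deposited average bead intensity per probe and array, not normalised, with a detection p-value, per the file headers; their deposited log2 values equal log2 of those signals (largest difference 5e-09), and their software is not given in the sources used here. Signal columns were assigned to samples through that identity. Of 47323 probes, 30113 had 1 gene symbol, 8 had several and 17202 had none; coordinates come from RefSeq promoters.

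Signals were background-corrected and quantile-normalised (neqc, offset 16) with limma 3.58.1 in R 4.3.3. Technical arrays were averaged, and the 6 replicates were fitted in 1 model of 3 groups with empirical Bayes moderation, tested on simulated data. All adjusted p-values are limma's, over 17356 probes in each comparison, called under 0.05. Named list genes were up to 6 called members per list with the largest change, filled to 2 by the smallest p, and for each member the 2 genes of highest correlation. Members and lists were chosen with earlier results of these data known. Deviations of same-numbered replicates from their group means correlated across groups at -0.01, 0.00 and 0.02, and the replicates were not treated as pairs. Figures used matplotlib 3.10.9. The files name no slide or scan.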

Additional observations from a re-analysis of the deposited data

Results flagged for a closer look

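Within each group of 4 arrays, the highest or lowest array of a tested member probe was compared with the others by Dixon's ratio, for 39 sets of 4 arrays. It stood apart in 3 of them, where chance gives about 1 in 20. For the brighter TAPBP probe, technical array 2 of CYT1 replicate 1 read 10.16, above 10.11 to 10.10 on the others, and technical array 2 of CYT2 replicate 1 read 9.79, below 10.04 to 10.09. For ERAP1, technical array 2 of CYT1 replicate 2 read 5.13, below 5.99 to 6.04.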

How the results depend on the processing

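Counts of called probes and named fold changes were recomputed under 21 alternatives (20 for ERAP1, UGGT1, PSMB9, SOCS1 and RAET1E, which drop out where detection on all 12 arrays is required), but array separation, correlations and marker sums were not. Of the alternatives, 3 (averaging by technical number, technical number as a block and scaling to the median of tested probes) were chosen after seeing the data. No called value reversed, and 13 of 39 member probe comparisons changed their call under some alternative; among 816 recomputed member values, 37 changed sign, all called in neither setting. The called probes in CYT1 minus VEC, 6229 as reported, were 3720 with technical array 1 alone, 3931 with technical array 2 alone and 3969 to 5688 when a replicate was left out. In CYT2 minus VEC, 5272 became 2972, 2937 and 3020 to 4921. In CYT1 minus CYT2, 82 became 1, 2 and 0 to 3; it was 995 with quantile scaling of uncorrected signals, 706 with deposited log2 values, 482 with an offset of 50, 346 for probes detected on all 12 arrays, 1094 with the biological sample as a random block (consensus correlation -0.14), 1089 with an intensity trend, 686 with the technical number as a block, 51 with median scaling over tested probes, 23 with averaging by technical number, 3 with only the 2 groups compared, and 2 with no detection filter.

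Member genes called higher in CYT1 minus VEC numbered 2 in place of 0 (HLA-C and TAPBP) with uncorrected signals, an offset of 50, detection on all 12 arrays, technical array 1 alone and an intensity trend, and 1 (HLA-C) with either block on 12 arrays. Member genes called lower there were 2 in place of 1 with deposited log2 values, adding HLA-B, and 1 whichever replicate was left out. In CYT2 minus VEC member genes called lower were 4 in place of 2 with deposited log2 values, and 1 (TAP2) with no detection filter, either technical array alone, only the 2 groups compared, or any replicate left out. Member genes called lower there were 3, with HLA-B added, for uncorrected signals, either median scaling and an offset of 50. The same 3 were called with an intensity trend and with either block on 12 arrays. HLA-F alone passed in CYT1 minus CYT2 (1 gene called higher) with uncorrected signals, the random block and the trend. With the replicate block, where the numbers do not pair the samples, 5719, 4732 and 2 probes were called in the 3 comparisons. With it, 1 member gene (TAP2) was called lower in CYT2 minus VEC, and HLA-F lost its call (adjusted p = 0.0572, limma). The cause of these changes was not tested. A slide or scan block was not run, since the files give none. Leaving out a replicate leaves 1 sample in that group, assumed to vary like the others.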
